A study of Mus musculus with 8 samples.

Results

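The genes described here are those whose symbol carries a family name of the tRNA modification enzymes, among them Trmt, Nsun, Adat, Pus, Qtrt, Alkbh and Mettl, or is that of a single enzyme such as Trit1, Gtpbp3 or Mto1. The match on symbols found 60 of the 10987 listed transcripts and itself used none of the measured values. The families were, however, chosen with earlier results of these data known. Of the 60 members, 38 are known to act on tRNA or to be a subunit of an enzyme that does. The other 22 share a family name but are known mainly for other substrates or, as Mettl27, for none. Examples are Mettl3 and Mettl14 (mRNA), Nsun4 and Nsun5 (rRNA), Mettl9 (protein) and Alkbh2 (DNA). The split was set by hand, and some of the 22 may also act on tRNA. The name of tRNA modification enzymes thus holds for the set only in part.

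Transfer RNA carries more chemical modifications than any other class of cellular RNA. Modifications in the body of the molecule, such as methylated bases, dihydrouridine and pseudouridine, are known to affect folding and stability, while those at the wobble base and at the base next to the anticodon affect how codons are read. Several of the enzymes consist of a catalytic subunit with a partner that binds the tRNA or activates the enzyme, and defects in a number of them are known causes of neurological disease in humans.

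The libraries, 4 of ribosome footprints and 4 of total RNA, came from 2 cultures of oligodendrocyte progenitor cells (OPCs) and 2 cultures of oligodendrocytes, the myelin-forming cells of the central nervous system. The OPCs had been made from mouse epiblast stem cells of the 129S/SvEv strain and were kept in growth medium with bFGF and PDGFA. The oligodendrocytes were derived from the corresponding OPC cultures in medium with noggin, IGF-1, cyclic AMP, NT3 and the thyroid hormone T3. No gene was deleted or introduced in either group, lysates of several plates were pooled for each culture, and the differentiated cultures are not a purified population. Footprints were made with micrococcal nuclease from monosomes and tabulated on the coding sequence, while RNA-seq was tabulated on the whole transcript. Values are FPKM, which correct for the length of the feature and for sequencing depth, so that levels can be compared between genes. In such bulk samples, fewer cells of a type and less RNA per cell cannot be told apart.

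All 7 listed oligodendrocyte markers were higher in oligodendrocytes in both kinds of library (limma on log2(FPKM + 0.1), Benjamini-Hochberg adjusted p under 0.05). Of the 5 listed OPC markers, 3 were also higher in oligodendrocytes, namely Pdgfra, Sox10 and Gpr17, and 0 were lower. Cspg4, which the study used as a marker of OPCs, was not listed, and whether OPC identity changed was not tested. The 5 listed markers of cycling cells were all lower. Their summed RNA-seq level was 432 and 557 FPKM in OPCs against 137 and 152 FPKM in oligodendrocytes. Of 5 listed astrocyte markers, S100b and Gfap were higher and Slc1a3 lower in RNA-seq. Their sum was 367 and 354 FPKM in OPCs but 1004 and 898 FPKM in oligodendrocytes, which S100b carried, since the sum without it was 346 and 341 FPKM in OPCs but 329 and 264 FPKM in oligodendrocytes. Of 4 listed neuron markers, Tubb3 was higher, and the sum of the other 3 was at most 5.32 FPKM in any RNA-seq library. The estimated depth was between 77.9 and 241 Mb (megabases) of aligned sequence for RNA-seq and between 93.0 and 249 Mb for footprints. The footprint library of oligodendrocyte replicate 2 stood apart. In it, 31.1% of the transcripts were listed at 0, and 172 transcripts at 0 exceeded 10 FPKM in each of the 3 other footprint libraries, against at most 3 in any other footprint library. Of the members, 12 were at 0 in this library and at most 2 in any other, and whether these zeros are measured absences or arose in tabulation was not tested. Footprint values and densities built on them carry this doubt.

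In RNA-seq, more of the tRNA modification genes were lower than higher in oligodendrocytes. Of the 57 members that reached a mean of 1 FPKM, 14 fell and 1 rose at an adjusted p under 0.05 (limma), which is 26.3% of the members against a background of 33.2% of all transcripts tested. The 14 that fell are 24.6% of the members, where 20.2% of all transcripts fell, and the member that rose compares with 13.0% of all transcripts. The share of members called was thus near or below the background, whereas their changes leaned to the negative side. The log2 fold change was negative for 44 of 57 members (77.2%) and for 60.0% of all transcripts, and its median was -0.73 for the members and -0.23 for all transcripts. The 2 libraries of OPCs and the 2 of oligodendrocytes did not overlap for 43 members. Of the 57 tested, 34 were lower in oligodendrocytes without overlap, against 44.2% of all transcripts tested, and 9 were higher, against 27.6%. With median-ratio scaling of the libraries, the median of all transcripts moved to -0.05 and that of the members to -0.55, and 11 members were lower and 4 higher, while of 8337 transcripts 1264 were lower and 1344 higher. These 4 were Trit1, Alkbh6, Mettl23 and Trmt2b. The members known to act on tRNA accounted for 12 of the 14 that fell, among 37 tested, and the others for 2 among 20 tested. The 12 include Adat1, whose mean reached 1 FPKM through the OPC libraries alone. In limma, 0 members were called without OPC replicate 1 or without OPC replicate 2 (14 and 12 at an unadjusted p under 0.05), fits in which the calls over all transcripts dropped from 2772 to 344 and 283 and the median of the members was -0.73 and -0.50. Without oligodendrocyte replicate 1, 16 members and 2364 transcripts were called, and without oligodendrocyte replicate 2, 5 members and 1551 transcripts. The RNA-seq levels of cycling-cell markers moved in the same direction as the 14 members, while S100b, Gfap and Tubb3 were higher. Their part in these results was not tested.

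**Figure D1:**
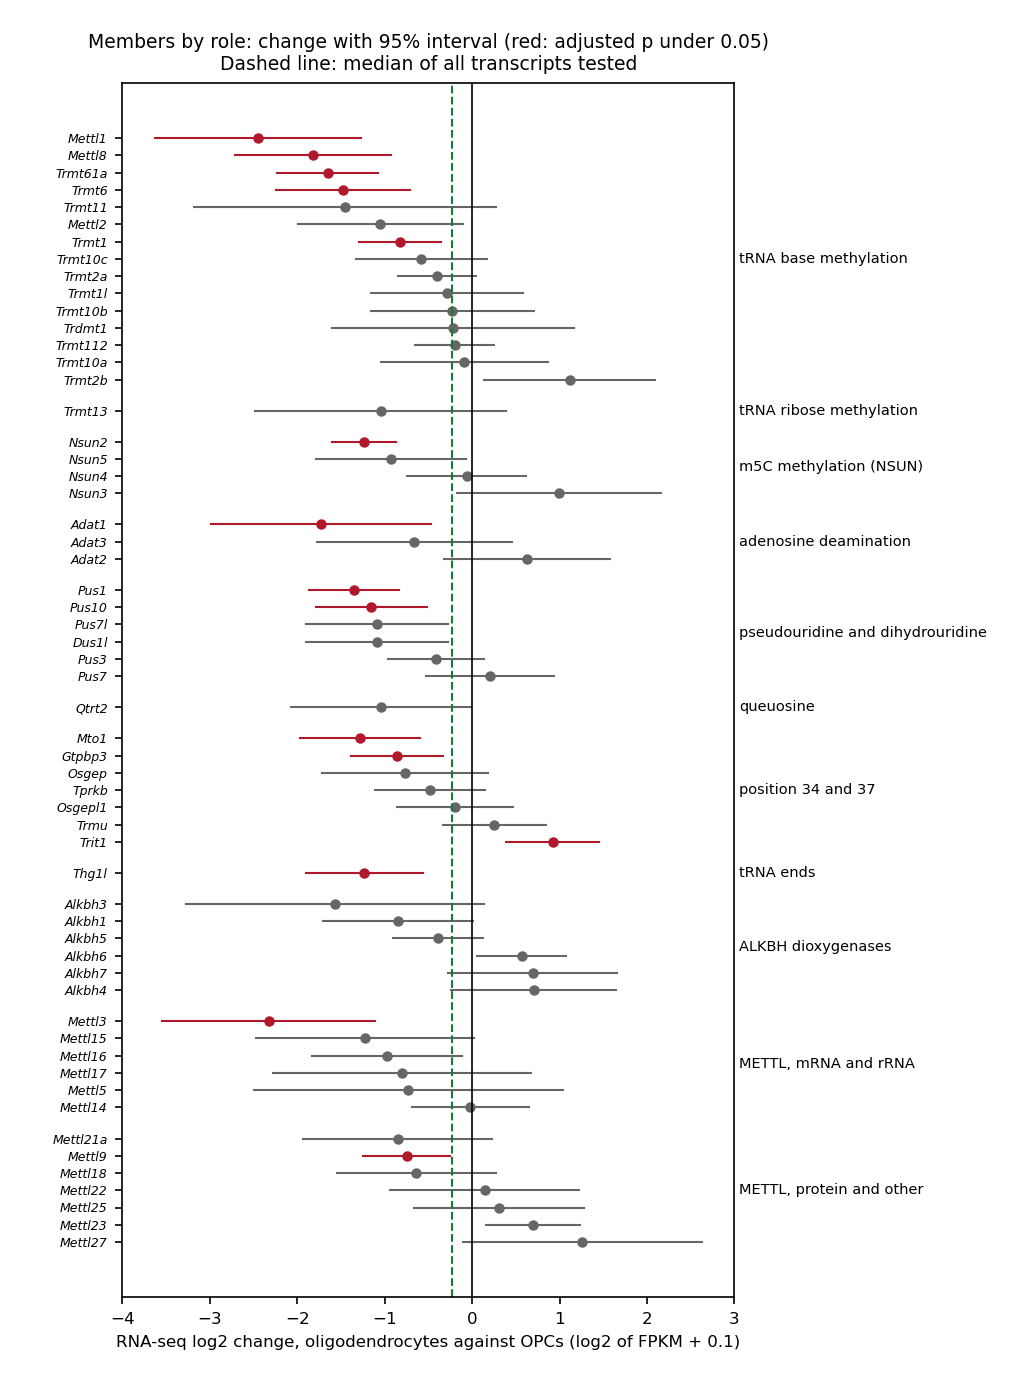
RNA-seq log2 change of oligodendrocytes against OPCs (x axis, log2 of FPKM + 0.1) for each of the 57 members tested, grouped by role, with points for the change, lines for its 95% interval and red for an adjusted p under 0.05. Of the 15 members in red, 14 lie left of 0 and Trit1 lies right of it, and the dashed line marks the median of all transcripts at -0.23.

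The group of base methyltransferases of tRNA held 15 members, of which 5 fell in RNA-seq and 0 rose, where 20.2% of all transcripts fell and 13.0% rose. The largest fall of any member was that of Mettl1, the catalytic subunit that methylates a guanosine in the variable loop together with Wdr4. Mettl1 lies on the plus strand of GRCm38 at chr10:127041932-127046365 and has 6 exons. It had 18.4 and 16.2 FPKM in RNA-seq of OPCs against 5.03 and 1.88 FPKM in that of oligodendrocytes. Both oligodendrocyte values lay well below either OPC value. The log2 fold change was -2.45 (standard error 0.48, limma adjusted p = 0.0141). In footprints the same gene had 48.6 and 60.7 FPKM in OPCs against 16.8 and 13.0 FPKM in oligodendrocytes, again without overlap, with a log2 fold change of -1.87 (standard error 0.24, limma adjusted p = 0.0145). The lowest RNA-seq value corresponds to an estimated 8.76 reads of 30 bases, against 265 reads for the highest, so the size of the fall is known less well than its direction.

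Trmt61a and Trmt6, the catalytic and the tRNA-binding subunit of the enzyme that methylates an adenosine in the T loop of cytosolic tRNA, both fell in RNA-seq. Trmt61a, at chr12:111678105-111683902 on the plus strand with 3 exons, had 20.5 and 25.2 FPKM in OPCs against 6.65 and 7.69 FPKM in oligodendrocytes. Trmt6, at chr2:132804207-132816054 on the minus strand with 11 exons, had 10.3 and 11.8 FPKM in OPCs against 4.68 and 3.24 FPKM in oligodendrocytes. Neither gene showed overlap between the groups, and the RNA-seq log2 fold changes were -1.65 for Trmt61a (standard error 0.23, limma adjusted p = 0.00522) and -1.48 for Trmt6 (standard error 0.31, limma adjusted p = 0.0178). Footprints of Trmt61a went from 61.2 and 78.7 FPKM in OPCs to 23.1 and 35.6 FPKM in oligodendrocytes (log2 fold change -1.27, standard error 0.29, limma adjusted p = 0.0470). This footprint call was lost with median-ratio scaling (limma adjusted p = 0.0743), without a minimum FPKM (0.0521), without trend (0.102) and in each fit that left out 1 library. Footprints of Trmt6 were at 16.9 and 18.9 FPKM in OPCs and at 14.1 and 7.20 FPKM in oligodendrocytes. The oligodendrocyte replicates lay far apart, and the footprint change of Trmt6 did not pass the threshold (-0.82, standard error 0.43, limma adjusted p = 0.241).

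Trmt1, which dimethylates a guanosine at the junction of the D and anticodon arms, had 23.4 and 25.7 FPKM in RNA-seq of OPCs and 14.2 and 13.4 FPKM in oligodendrocytes. The replicates lay close together in both groups, and the gene fell by 0.82 on the log2 scale (standard error 0.19, limma adjusted p = 0.0231). Mettl8, which methylates a cytidine in the anticodon loop of mitochondrial tRNA, had 10.1 and 12.8 FPKM in OPCs against 4.10 and 2.42 FPKM in oligodendrocytes (log2 fold change -1.82, standard error 0.36, limma adjusted p = 0.0150). Its cytosolic relative Mettl2 had 12.4 and 12.3 FPKM in OPCs against 8.47 and 4.11 FPKM in oligodendrocytes. Mettl2 did not pass the threshold (limma adjusted p = 0.0852), but did with cultures of the same number paired (0.0411). Trmt11 and its activating subunit Trmt112 were at different levels throughout. Trmt112, which also serves other methyltransferases such as Mettl5, had 33.1 and 29.5 FPKM in RNA-seq of OPCs and 29.4 and 25.2 FPKM in oligodendrocytes, while Trmt11 had 4.19 and 3.56 FPKM in OPCs against 2.69 and 0.653 FPKM in oligodendrocytes. Neither passed the threshold in RNA-seq. Footprints of Trmt112 were at 207 and 179 FPKM in OPCs and at 142 and 111 FPKM in oligodendrocytes, with a limma adjusted p of 0.0778 unpaired and 0.0350 paired. Of the transcript of Trmt112, 69.8% of the 30-base words occur in other genes, mainly its pseudogenes and the overlapping gene Prdx5, so its level is uncertain. Trmt2b, a methyltransferase of mitochondrial RNA, was the only one of the 15 with a positive RNA-seq change, with 1.78 and 2.04 FPKM in OPCs against 4.70 and 3.83 FPKM in oligodendrocytes (log2 fold change 1.12, standard error 0.39, limma adjusted p = 0.0780). The RNA-seq groups of Trmt2b did not overlap, and its footprints were listed at 0 in all libraries except oligodendrocyte replicate 1, which had 5.62 FPKM.

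**Figure D2:**
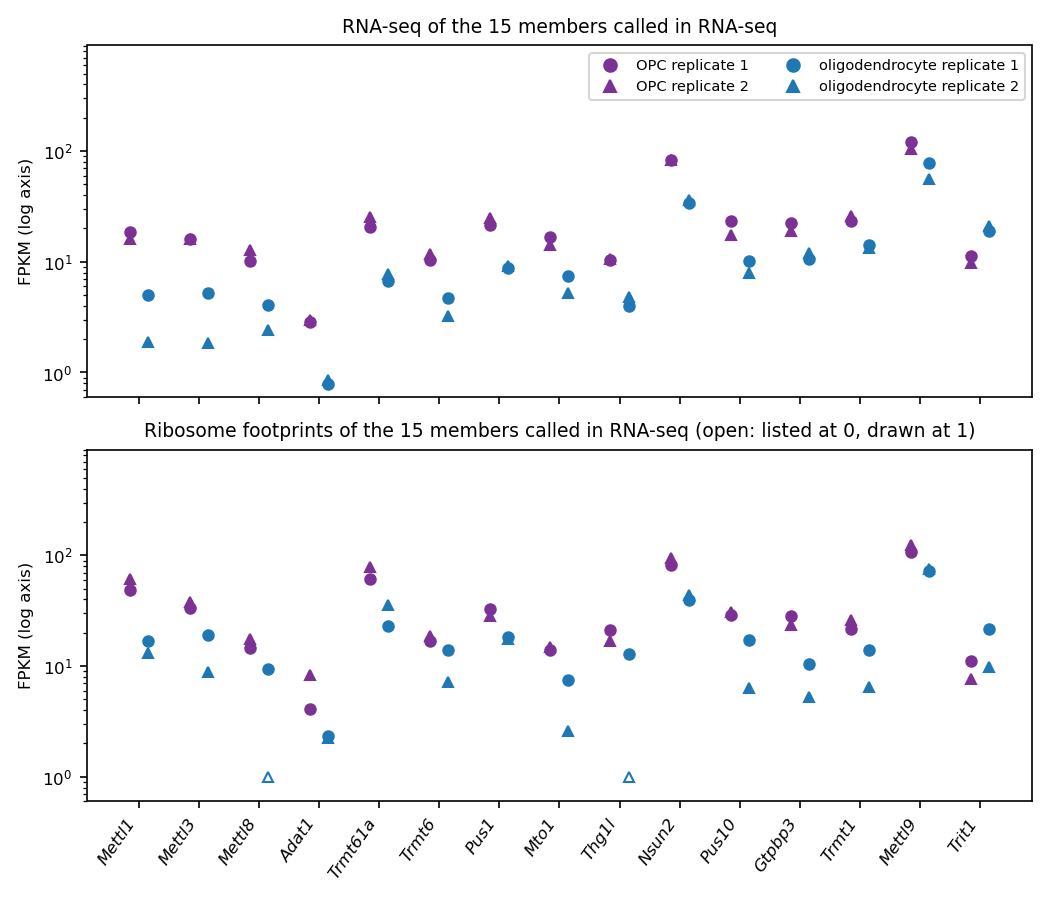
FPKM (y axis, logarithmic) of the 15 members called in RNA-seq, in each library of RNA-seq (top) and footprints (bottom), with circles and triangles for replicates 1 and 2, purple for OPCs and blue for oligodendrocytes. In RNA-seq the groups of all 15 genes are apart, with Trit1 alone higher in oligodendrocytes, while in footprints Mettl8 and Thg1l were listed at 0 in oligodendrocyte replicate 2 and the groups of Trit1 overlap.

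Of the 5 NSUN cytosine methyltransferases, Nsun2 was by far the most abundant and the only one to fall among 4 tested, where 20.2% of all transcripts fell. Nsun2 methylates cytidines of cytosolic tRNA and lies at chr13:69612016-69634334 on the plus strand, with 19 exons. In RNA-seq it had 82.5 FPKM in both OPC libraries and 34.2 and 35.8 FPKM in those of oligodendrocytes. In footprints it had 81.6 and 94.9 FPKM in OPCs against 39.3 and 43.7 FPKM in oligodendrocytes. The spread between replicates was small beside the difference in both kinds of library, and the change was -1.23 on the log2 scale in RNA-seq (standard error 0.15, limma adjusted p = 0.00344) and -1.08 in footprints (standard error 0.15, limma adjusted p = 0.0178). Nsun3, which acts on the wobble cytidine of mitochondrial methionine tRNA, had 1.81 and 3.26 FPKM in RNA-seq of OPCs and 6.39 and 3.84 FPKM in oligodendrocytes (log2 fold change 1.00, standard error 0.47, limma adjusted p = 0.157). The groups did not overlap, although replicates of either group lay far apart. Nsun6 was under the minimum in both kinds of library, and Nsun4 and Nsun5 did not pass the threshold in RNA-seq.

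Among 6 genes for pseudouridine and dihydrouridine, Pus1 and Pus10 fell in RNA-seq and 0 rose (20.2% and 13.0% of all transcripts). Pus1, a pseudouridine synthase of cytosolic and mitochondrial tRNA at chr5:110773667-110780596 on the minus strand, had 21.4 and 24.6 FPKM in OPCs against 8.77 and 9.08 FPKM in oligodendrocytes (log2 fold change -1.35, standard error 0.21, limma adjusted p = 0.00680). Pus10, a pseudouridine synthase that acts in the T loop, at chr11:23665697-23731525 on the plus strand, had 23.1 and 17.6 FPKM in OPCs against 10.3 and 7.91 FPKM in oligodendrocytes (log2 fold change -1.16, standard error 0.26, limma adjusted p = 0.0207). Both genes had OPC values clearly above those of oligodendrocytes. The Pus7 paralog Pus7l and the dihydrouridine synthase Dus1l lay just above the threshold, at an adjusted p of 0.0505 and 0.0515, and below it in the paired limma fit, at 0.0209 and 0.0326. Their log2 fold changes were -1.09 and -1.08. Pus7 itself had 10.6 and 16.0 FPKM in RNA-seq of OPCs and 12.9 and 17.5 FPKM in oligodendrocytes, and the groups overlapped. Its footprints, at 19.3 and 26.4 FPKM in OPCs and at 36.8 and 47.2 FPKM in oligodendrocytes, did not overlap but did not pass the threshold (log2 fold change 0.88, standard error 0.26, limma adjusted p = 0.0835). They passed it with only transcripts above 0 in all libraries (0.0474), a setting added after the data had been seen. Nearly all of the transcript of Pus3 (97.1%) is overlapped by Hyls1 on the opposite strand. The text of the study's methods states no strand setting for the counting. The values of Pus3, 19.8 and 27.2 against 17.4 and 17.4 FPKM, are therefore uncertain.

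Of the members that fell in RNA-seq, Mettl1, Trmt61a and Pus1 have a RefSeq promoter that holds an E-box, a recognition sequence of basic helix-loop-helix factors. A promoter, here the 250 bases before to 50 after an annotated start, was at hand for 53 of the 60 members (RefSeq, GRCm38.p6). These 53 members have 66 promoters, and a gene was counted where any of its promoters held the word. The word CACGTG reads the same on both strands and was 1 of 6 words searched. It occurred in 8 of the 53 members (15.1%), against 8.09% of the genes with a promoter and 11.8% of those tested in RNA-seq. It occurred in 3 of 11 members that fell and in 5 of the 42 others, Alkbh7, Osgep, Pus3, Pus7 and Trmt10a. The sequences around it are shown because these genes moved together, were chosen after the values had been seen, and carry the word in capitals. They span chr10:127041950-127041979 on the plus strand for Mettl1, chr12:111678118-111678147 on the plus strand for Trmt61a and chr5:110780576-110780605 on the minus strand for Pus1, written 5′ to 3′:
Mettl1: agctcggctctcCACGTGgactgcgtggca
Trmt61a: ccgccgtggagcCACGTGtggagccgggag
Pus1: tccgccttcgtgCACGTGgtcagcttcggg
In all 3 of these genes the word begins downstream of the annotated start, by 30 bases in Mettl1, by 25 in Trmt61a and by 3 or 22 for the starts listed for Pus1. A match is a description of the sequence, and binding was not measured here. The other words were searched on both strands in the same promoters. CCGGAAG, a core of ETS factor sites, occurred in 23 of 53 members (43.4%) and 21.4% of the genes tested. ACTTCCG, whose reverse complement overlaps CCGGAAG by 6 letters, occurred in 18 members (34%) against 16%. Of the 11 members that fell, 6 held the first of these words and 5 held the second. TGCGCA, the core of NRF1 sites, occurred in 9 members (17%) against 17.3%, GGGCGG, a GC box, in 27 members (50.9%) against 71.8%, and the ZNF143 word in 1 member, Mettl8 (1.89%), against 0.821%. The E-box was therefore neither the most frequent word among the members nor the one with the widest gap to the genes tested.

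Of the 3 adenosine deaminases, which convert adenosine of tRNA to inosine, Adat1 was called lower (20.2% of all transcripts). Adat1 acts next to the anticodon of alanine tRNA and had 2.84 and 3.00 FPKM in RNA-seq of OPCs and 0.781 and 0.848 FPKM in oligodendrocytes (log2 fold change -1.72, standard error 0.51, limma adjusted p = 0.0478). The oligodendrocyte values rest on an estimated 9.90 and 6.96 reads, and the call was lost when cultures were paired (limma adjusted p = 0.0613). Adat1 reached the minimum mean of 1 FPKM through the OPC libraries alone, so its call is not read as a result. The wobble deaminase consists of Adat2 and Adat3. RNA-seq gave 8.44 and 5.11 FPKM in OPCs against 7.88 and 13.2 FPKM in oligodendrocytes for Adat2. For Adat3 it gave 7.01 and 4.56 FPKM in OPCs against 2.53 and 4.93 FPKM in oligodendrocytes. Both genes overlapped between the groups. The transcript of Adat3 is wholly overlapped by other transcripts of the same strand, so its level cannot be told apart from theirs.

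Nsun3, Alkbh1, Qtrt2 and the deaminases are described with their families. A further group of 7 members acts at the wobble base or the base next to the anticodon. Of these 7, Gtpbp3 and Mto1 fell and Trit1 rose in RNA-seq, where 20.2% of all transcripts fell and 13.0% rose. Gtpbp3 and Mto1 together place a taurine-containing group on the wobble uridine of mitochondrial tRNA. Gtpbp3, at chr8:71488103-71493400 on the plus strand, had 22.5 and 18.9 FPKM in OPCs against 10.7 and 12.0 FPKM in oligodendrocytes. Mto1, at chr9:78448208-78474152 on the plus strand, had 16.7 and 14.1 FPKM in OPCs against 7.45 and 5.24 FPKM in oligodendrocytes. The partners moved in the same direction, by -0.86 for Gtpbp3 (standard error 0.21, limma adjusted p = 0.0295) and by -1.28 for Mto1 (standard error 0.28, limma adjusted p = 0.0195). The call of Gtpbp3 was lost with median-ratio scaling (limma adjusted p = 0.0654) and without trend (0.0574). Trmu, which thiolates the same uridine, had 11.2 and 8.92 FPKM in OPCs against 12.1 and 11.8 FPKM in oligodendrocytes. It did not pass the threshold (log2 fold change 0.25, standard error 0.24, limma adjusted p = 0.441). Trit1, which adds an isopentenyl group to the adenosine next to the anticodon in cytosolic and mitochondrial tRNA, was the only member to rise in RNA-seq, and 1 of the 4 with median-ratio scaling. It lies at chr4:123016597-123054949 on the plus strand and went from 11.4 and 9.72 FPKM in OPCs to 19.0 and 21.1 FPKM in oligodendrocytes (log2 fold change 0.92, standard error 0.21, limma adjusted p = 0.0234). This call was lost in each fit that left out 1 library (limma adjusted p between 0.0562 and 0.151). Its footprints had 11.0 and 7.70 FPKM in OPCs against 21.6 and 9.78 FPKM in oligodendrocytes, so that the footprint groups overlapped. Osgep and Tprkb are subunits of the complex that adds a threonylcarbamoyl group to an adenosine next to the anticodon. Osgep, Tprkb and the mitochondrial relative Osgepl1 did not pass the threshold.

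Of the remaining tRNA members, Thg1l, which adds a guanosine to the end of histidine tRNA, fell from 10.5 FPKM in both OPC libraries of RNA-seq to 4.03 and 4.81 FPKM in oligodendrocytes (log2 fold change -1.23, standard error 0.27, limma adjusted p = 0.0202). Qtrt2, the partner subunit of the enzyme that inserts queuine at the wobble position, had 5.65 and 11.6 FPKM in OPCs against 3.63 and 4.15 FPKM in oligodendrocytes. These groups did not overlap, but the OPC replicates lay far apart, and the change did not pass the threshold (log2 fold change -1.04, standard error 0.42, limma adjusted p = 0.106). The ribose methyltransferase Trmt13 was low, between 0.773 and 2.77 FPKM in RNA-seq. Of the 12 members known mainly for mitochondria, 3 fell in RNA-seq (Mettl8, Gtpbp3 and Mto1), with a median log2 fold change of -0.39. Of the other 45 tested, 11 fell, with a median of -0.75, where 20.2% of all transcripts fell. In footprints the order turned, with a median of -0.86 for the mitochondrial members and -0.80 for the others. Pus1, Trit1 and Alkbh1, which act in both compartments, were counted with the others.

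Among the members not known mainly for tRNA, Mettl3 stood out. Mettl3 is the catalytic subunit of the complex that places N6-methyladenosine on mRNA, with Mettl14 as its partner. In RNA-seq Mettl3, at chr14:52294841-52305128 on the minus strand, had 16.1 FPKM in both OPC libraries and 5.20 and 1.86 FPKM in oligodendrocytes (log2 fold change -2.33, standard error 0.49, limma adjusted p = 0.0182). Mettl14, at chr3:123368297-123386108 on the minus strand, had 7.80 and 7.43 FPKM in OPCs against 8.51 and 6.63 FPKM in oligodendrocytes. Mettl14 thus overlapped between the groups, and its log2 fold change of -0.02 (standard error 0.27) turned positive with median-ratio scaling. In footprints Mettl3 had 33.7 and 38.0 FPKM in OPCs against 19.2 and 8.92 FPKM in oligodendrocytes, while Mettl14 had 21.7 and 28.8 FPKM in OPCs against 36.9 and 44.1 FPKM in oligodendrocytes. The footprint groups of both genes did not overlap and lay in opposite directions, but neither passed the threshold (limma adjusted p = 0.0883 for Mettl3 and 0.112 for Mettl14). Mettl3 passed it with only transcripts above 0 in all libraries (0.0358), a setting added after the data had been seen. Of the transcript of Mettl3, 18.1% is overlapped by Tox4 on the opposite strand, and its lowest RNA-seq value rests on an estimated 9.77 reads.

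Mettl9, which methylates histidines of proteins, was the member with the highest RNA-seq level. It had 119.6 and 104 FPKM in OPCs against 77.3 and 56.6 FPKM in oligodendrocytes (log2 fold change -0.75, standard error 0.20, limma adjusted p = 0.0370). Footprints of Mettl9 were at 108 and 126 FPKM in OPCs and at 72.7 and 75.2 FPKM in oligodendrocytes (log2 fold change -0.66, standard error 0.13, limma adjusted p = 0.0376). All 4 oligodendrocyte values lay below all 4 OPC values. Both calls of Mettl9 were lost with median-ratio scaling (limma adjusted p = 0.0648 in RNA-seq and 0.0709 in footprints) and without trend (0.105 and 0.117), and that in RNA-seq also without a minimum FPKM (0.0531). Genes of the opposite strand overlap 29.1% of the transcript of Mettl9, as they do 18.5% of that of Pus1 and 13.7% of that of Nsun2. Mettl27, a family member of unknown substrate, had 4.21 and 4.15 FPKM in footprints of OPCs and 13.3 and 13.0 FPKM in oligodendrocytes (log2 fold change 1.63, standard error 0.36, limma adjusted p = 0.0459). It was the only member to rise in footprints, and with paired cultures the adjusted p of limma was 0.103. In RNA-seq it had 1.54 and 0.973 FPKM in OPCs against 4.21 and 2.25 FPKM in oligodendrocytes, the largest positive change of any member, which did not pass the threshold (log2 fold change 1.26, standard error 0.55, limma adjusted p = 0.133). Mettl23, another family member, had 9.31 and 9.62 FPKM in RNA-seq of OPCs and 16.4 and 14.4 FPKM in oligodendrocytes. The groups were apart, with a log2 fold change of 0.69 (standard error 0.22, limma adjusted p = 0.0564), although 40.4% of its 30-base words occur in other genes. Mettl5, which methylates rRNA together with Trmt112, differed most between OPC replicates in RNA-seq, with 3.07 and 14.0 FPKM.

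The ALKBH family consists of dioxygenases that remove alkyl groups from nucleic acids or act on proteins. Of its 6 members tested in RNA-seq, 0 were called in limma, and 1, Alkbh6, had an unadjusted p under 0.05 and was called with median-ratio scaling. Of all 8346 transcripts, 33.2% were called and 3781 had such a p. Alkbh5, the demethylase of mRNA, was among the more abundant members, with 40.2 and 29.8 FPKM in RNA-seq of OPCs and 27.3 and 25.6 FPKM in oligodendrocytes. Alkbh1, which acts on tRNA in the cytosol and in mitochondria, had 7.20 and 11.5 FPKM in OPCs against 5.80 and 4.36 FPKM in oligodendrocytes. Both were lower in oligodendrocytes without overlap but not past the threshold (limma adjusted p = 0.203 and 0.115). Alkbh3, which repairs alkylated DNA and RNA, had 9.98 and 11.0 FPKM in OPCs against 7.41 and 1.59 FPKM in oligodendrocytes, so that most of its log2 fold change of -1.57 came from oligodendrocyte replicate 2, and its adjusted p of limma was 0.133 unpaired and 0.0484 paired. Alkbh4 and Alkbh6 had higher values in both oligodendrocyte libraries than in either OPC library, at 5.67 and 6.77 against 4.94 and 2.86 FPKM for Alkbh4 and at 18.3 and 21.8 against 13.6 and 13.3 FPKM for Alkbh6. Alkbh2, known for repair of DNA, was listed at 0 in all 4 RNA-seq libraries but had 6.39 and 3.55 FPKM in footprints of OPCs and was listed at 0 in those of oligodendrocytes. It passed the minimum through the OPC libraries alone and is compared with values listed at 0, so its call in footprints (limma adjusted p = 0.0356, and 0.0910 with paired cultures) is not read as a result, and 30.7% of the transcript is overlapped by Usp30 on the opposite strand.

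Genes that form one enzyme did not always move together. The ratio of Mettl3 to Mettl14 was 2.06 and 2.16 in RNA-seq of OPCs and 0.612 and 0.280 in oligodendrocytes. In footprints it was 1.56 and 1.32 in OPCs and 0.521 and 0.202 in oligodendrocytes. Mettl3 was therefore the more abundant partner in both OPC cultures and the less abundant one in both oligodendrocyte cultures, in both kinds of library. The ratio of Adat2 to Adat3 was 1.20 and 1.12 in RNA-seq of OPCs and 3.11 and 2.68 in oligodendrocytes, with the doubt on the level of Adat3 given above. For Nsun3 and Alkbh1, which modify the same cytidine of mitochondrial methionine tRNA in succession, the RNA-seq ratio was 0.252 and 0.283 in OPCs and 1.10 and 0.882 in oligodendrocytes, while the footprint ratios overlapped. These RNA-seq ratios did not overlap between the groups, nor did those of Trmt11 to Trmt112 and Gtpbp3 to Mto1, although the footprint ratios of the last 2 pairs overlapped. By contrast, the ratio of Trmt6 to Trmt61a was 0.502 and 0.469 in OPCs and 0.703 and 0.421 in oligodendrocytes, and that of Osgep to Tprkb was 0.252 and 0.422 in OPCs and 0.248 and 0.284 in oligodendrocytes. The ratios of both of these pairs overlapped between the groups in both kinds of library. No test of these ratios was run, and their differences are given as a description.

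**Figure D3:**
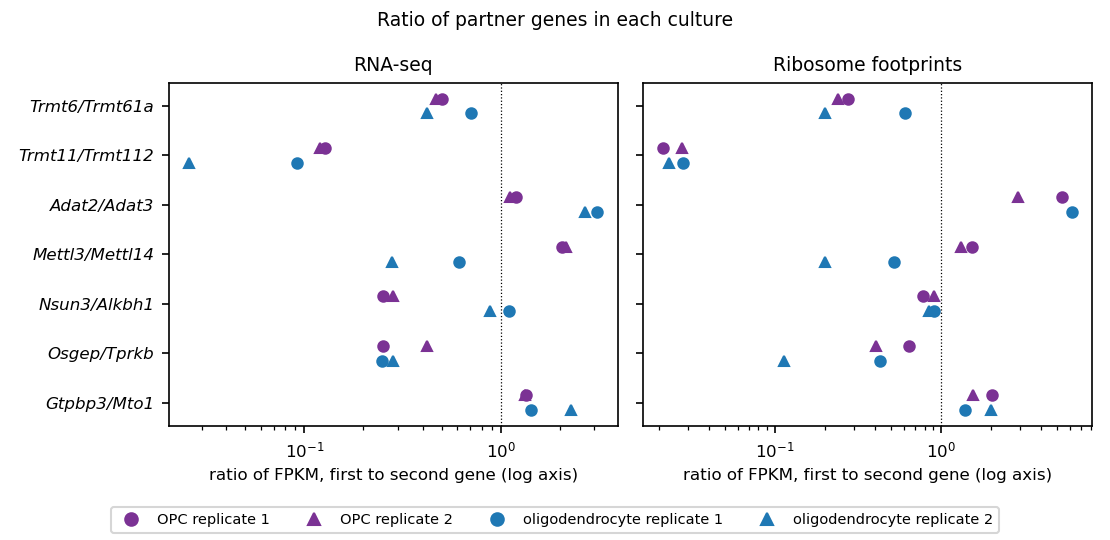
Ratio of the FPKM of 2 genes that act in one enzyme or in succession (x axis, logarithmic) for each of 7 pairs, in RNA-seq (left) and footprints (right), with circles and triangles for replicates 1 and 2, purple for OPCs and blue for oligodendrocytes. Mettl3/Mettl14 lies right of 1 in OPCs and left of 1 in oligodendrocytes in both panels, and Adat2/Adat3 has no footprint value in oligodendrocyte replicate 2, where Adat2 was listed at 0.

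In footprints, 6 of the 58 members tested were called, 5 of them lower and 1 higher in oligodendrocytes (limma adjusted p under 0.05). Among the 5, Alkbh2 was compared with 0 as described above. The 6 are 10.3% of the members against 23.6% of all transcripts (10.8% lower and 12.8% higher). The median log2 fold change was -0.81 for the members and -0.16 for all transcripts. Of the 58 members, 34 were lower without overlap between the groups, against 37.9% of all transcripts tested, and 5 were higher, against 31.8%. Mettl1, Nsun2, Mettl9 and Trmt61a were lower in both kinds of library, which is 7.02% of the 57 members tested in both against 8.95% of all transcripts. All 14 members that fell in RNA-seq had a negative footprint change with no overlap between the groups, including 2, Mettl8 and Thg1l, that were listed at 0 in the library of oligodendrocyte replicate 2. The same held for 1564 of the 1663 transcripts that fell in RNA-seq and were tested in footprints (94%), so this is not particular to the members. Each fit without 1 library keeps a single culture in 1 group, so its calls are not read as results. Mettl1, Nsun2, Mettl9, Trmt61a and Mettl27 all lost their footprint calls without oligodendrocyte replicate 2. The members called in that fit were Alkbh2 and Trmt2b, each listed at 0 throughout 1 group. The median log2 fold change of the members was -0.42 without oligodendrocyte replicate 2 and -0.97 without replicate 1. For all transcripts it was 0.08 and -0.31. Without OPC replicate 1 or 2 the median was -0.81 and -0.78 for the members and -0.17 and -0.15 for all transcripts. Among the 48 members above 0 in all footprint libraries, an alternative added after the data had been seen, 10 were called, 8 of them lower, while 2456 of 7078 transcripts were called under the same setting, 1186 of them lower.

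Of the 12 members at 0 in the footprint library of oligodendrocyte replicate 2, 6 had clear values in the 3 others. The remaining 6 were low or also at 0 elsewhere. Adat2 had 35.7, 32.0 and 28.2 FPKM in the 3 other footprint libraries and Nsun5 had 21.2, 20.1 and 9.90 FPKM. Thg1l had 21.1, 16.9 and 12.8 FPKM, Mettl17, a factor of the mitochondrial ribosome, had 13.3, 21.1 and 12.6 FPKM, Mettl8 had 14.6, 17.6 and 9.36 FPKM, and Qtrt2 had 10.0, 13.9 and 6.49 FPKM. These values are in the order OPC replicates 1 and 2 and oligodendrocyte replicate 1. The RNA-seq values of the 6 genes in oligodendrocyte replicate 2 lay between 2.42 and 13.2 FPKM, so none was at 0 there. Their footprint log2 fold changes, between -4.37 and -3.87, therefore depend on a value of 0 and on the added 0.1, and none passed the threshold.

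**Figure D4:**
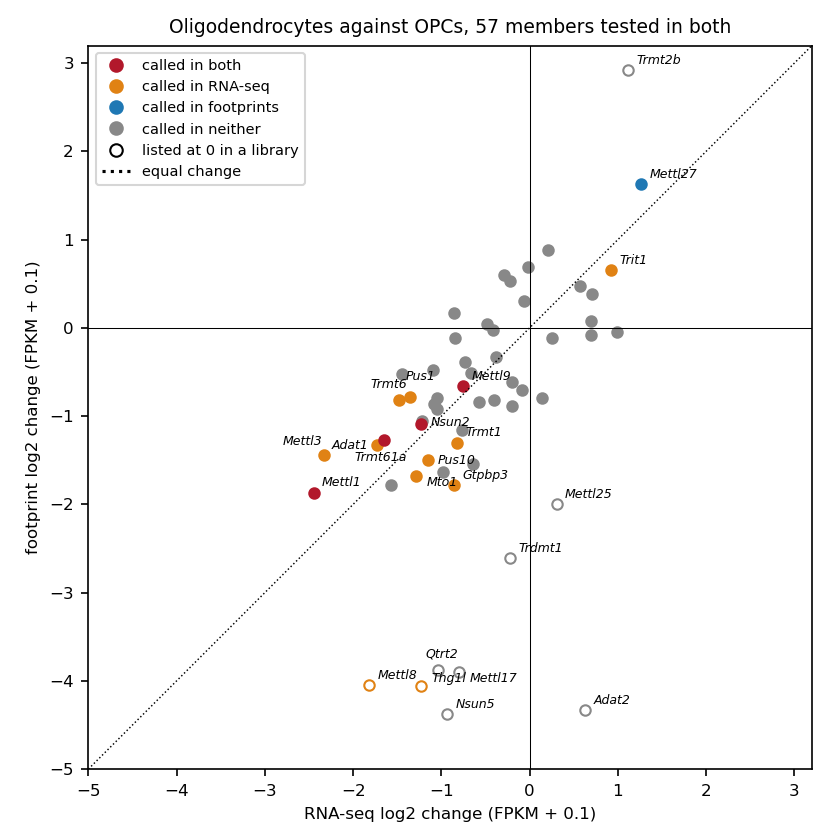
Log2 change of oligodendrocytes against OPCs in RNA-seq (x axis) and footprints (y axis), both as log2 of FPKM + 0.1, for the 57 members tested in both, with colours for the calls, open circles for members listed at 0 in a library and a dotted line where both changes are equal. The members called in both lie near the dotted line, and the open circles below -3.5 on the y axis are members listed at 0 in the footprint library of oligodendrocyte replicate 2.

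Ribosome density, the footprint FPKM divided by the RNA-seq FPKM of the same culture, did not change for any member past the threshold. In the limma fit of cell type with kind of library, 0 of 57 members were called and 0 had an unadjusted p under 0.05, while of all transcripts 0.0124% were called and 4.8% had such a p. The median of this change was -0.09 for the members and 0.10 for all transcripts on the log2 scale. The 95% interval of the change was -0.30 to 0.60 for Nsun2, -0.52 to 0.70 for Mettl9 and -0.53 to 1.29 for Trmt61a, so that changes of these sizes could not be detected with these replicates. In each culture, the median density of the members was 1.53 and 1.70 in OPCs and 1.79 and 1.68 in oligodendrocytes, where that of all transcripts was 1.72 and 1.77 in OPCs and 2.02 and 1.95 in oligodendrocytes. The median of the members was the lower one in each of the 4 cultures, but the ranges between quartiles overlapped widely (in OPC replicate 2, quartiles of 1.16 and 2.57 for the members and 1.10 and 2.76 for all transcripts), and the difference was not tested. In oligodendrocyte replicate 2 the 9 members at 0 in footprints are left out of the median. Trmt112 was among the 3 members of highest density in both OPC cultures, at 6.26 and 6.05, and had 4.82 and 4.41 in oligodendrocytes, although its shared sequence makes the ratio uncertain. Nsun2 was at 0.99 and 1.15 in OPCs and at 1.15 and 1.22 in oligodendrocytes, and Mettl9 at 0.91 and 1.21 in OPCs and at 0.94 and 1.33 in oligodendrocytes. Both of these abundant genes were thus near 1 in all cultures. Without oligodendrocyte replicate 1 the fit, which then has 1 oligodendrocyte culture, called 9 members, 8 of them lower, and 834 of 8028 transcripts, 698 of them lower, and these 8 were listed at 0 in the remaining footprint library of oligodendrocytes.

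**Figure D5:**
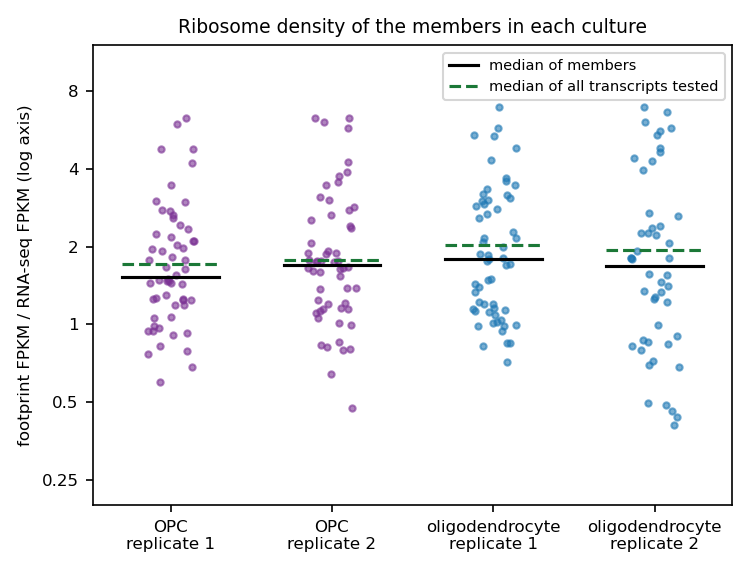
Ribosome density of the members (y axis, logarithmic, footprint FPKM over RNA-seq FPKM) in each of the 4 cultures, one point per member above 0 in both libraries, with solid lines for the median of the members and dashed lines for that of all transcripts tested. The solid line lies below the dashed line in every culture, between 1.53 and 1.79.

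Members differed widely in level. By mean RNA-seq FPKM over the 4 libraries, Mettl9 (89.3), Nsun2 (58.7) and Alkbh5 (30.7) were the highest, followed by Trmt112 (29.3) and Trmt2a (25.5). The ranges of Alkbh5 and Trmt112 overlapped in OPCs and in oligodendrocytes, so their order is not resolved, while Mettl9 lay above Nsun2 in all 4 libraries. The lowest were Alkbh2 (0), Mettl7a2 (0.561) and Nsun6 (0.916). Mettl7a2 had between 0.372 and 0.789 FPKM in the 4 libraries and shares 74.1% of its 30-base words with other genes, mainly its own paralogs, and Nsun6, which methylates the acceptor stem, had 1.02 and 1.21 FPKM in OPCs against 1.43 and 0 FPKM in oligodendrocytes.

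Other genes of the same pathways were compared in RNA-seq, where 20.2% of all transcripts fell and 13.0% rose. The share that fell ranged from 8.33% to 26.7% over the 4 lists. Of 16 other modification enzymes and partners, 3 fell and 0 rose, with Thumpd1 (log2 fold change -1.03), Nat10 (-1.36) and Gon7 (-2.01) as those that fell (limma adjusted p = 0.0181, 0.0205 and 0.0334). Thumpd1 and Nat10 acetylate cytidine of tRNA together, and Gon7 belongs to the complex of Osgep and Tprkb. Of 15 genes of RNA polymerase III, which transcribes tRNA genes, and its factors, 4 fell and 0 rose, namely Gtf3a (-1.12), Gtf3c5 (-1.21), Bdp1 (-1.36) and Gtf3c4 (-0.75). Of 20 tested genes for tRNA end processing, splicing and export, 5 fell, among them Pop1 (-1.86) and Ssb (-0.90), and Rpp21 rose (1.08). Of 12 genes of the m6A writer complex and its readers, Rbm15 fell (-0.85) and 0 rose, and the median log2 fold change of this list, -0.33, was the one nearest to that of all transcripts. The medians of the other 3 lists were -0.80, -0.75 and -0.55 in the order given.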

How the data were processed

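RNA-seq and ribosome footprints of 2 cultures each of OPCs and oligodendrocytes were compared. The authors deposited FPKM values, made with HISAT2 2.1.0 on GRCm38 and StringTie 1.3.5 (submitters' notes) for canonical coding transcripts, on transcripts for RNA-seq and on coding sequences for footprints. FPKM keep no read counts. Depth was therefore estimated from how low values are spaced, a method tested on simulated data, and reads of 30 bases are derived from it. FPKM cannot show a change in total RNA per cell. log2(FPKM + 0.1) was tested with limma 3.58.1 (eBayes with trend, R 4.3.3), two-sided, keeping transcripts whose mean reached 1 FPKM, with Benjamini-Hochberg adjustment over all transcripts tested and a threshold of 0.05. The density change is the cell type by library type interaction over 8 libraries. Called means an adjusted p under 0.05. P-values measure the spread between cultures of one derivation.

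Members and gene lists were chosen with earlier results of these data known. Values in each library are given for members called, the 6 largest rises and falls in RNA-seq and members at 0 (at most 6). They are also given for the 3 highest and lowest and for partner subunits, except Osgep and Tprkb, given only as a ratio. The study's methods state that the oligodendrocytes correspond to the OPC replicates, without matching their numbers. That cultures of the same number belong together was assumed from the library titles. Deviations of same-numbered cultures had a Pearson correlation across genes of 0.11 in RNA-seq and 0.09 in footprints. Coordinates, overlaps and shared 30-base words come from Gencode vM21 (GRCm38), where all 60 members were found. All 8 columns of values were used. The 6 promoter words were searched after the values had been seen.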

Additional observations from a re-analysis of the deposited data

How the results depend on the processing

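With 2 cultures in each group, calls depend on single libraries. Leaving out 1 library, the number of members called ranged from 0 to 16 in RNA-seq (lower: 0 to 16; all transcripts: 283 to 2364), from 0 to 26 in footprints (lower: 0 to 25; all: 0 to 3268) and from 0 to 9 for ribosome density (lower: 0 to 8; all: 0 to 834). Single calls were also lost without trend (Trmt1 in RNA-seq and Nsun2 in footprints), with median-ratio scaling (Adat1 in RNA-seq) and without a minimum FPKM (Adat1 in RNA-seq and Mettl27 in footprints), besides those named above. In limma without trend, footprints gave 3 members, 2 of them lower, and 1036 transcripts. With transcripts above 0 in all libraries only, footprints gave 10 members, 8 of them lower. For density, the count of all transcripts was 3 with median-ratio scaling, 14 without trend, 0 with a culture block and 0 with transcripts above 0 in all libraries, where 1 was called otherwise. With the replicate block, which pairs cultures of the same number, 18 members were called in RNA-seq (17 lower), 5 in footprints and 0 for density, where 3323, 1735 and 1 of all transcripts were called, and the calls it changed for single members are given above. The RNA-seq change of Mettl14 turned to 0.16 with median-ratio scaling and ranged from -0.20 to 0.16 when 1 library was left out. With 1 added to both FPKM, the median density of the members was 1.64 and 1.28 in the oligodendrocyte cultures. The cause of these shifts was not tested. The pseudocount of 1, the minimum of 5 FPKM and no minimum left the counts of members called within 1.5 times the reported ones. Values below about 1 FPKM rest on few reads, and depth limits them most in oligodendrocyte replicate 2.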
